A study of Oryza sativa with 4 samples.

Results

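Protein phosphatases 2C are serine/threonine phosphatases that form a large family in plants. They were taken as the annotated assembled transcripts whose annotation text contains the family's name. The rule found 92 transcripts of 70 loci, out of 57629 annotated transcripts of 51250 loci. From knowledge of the rice family, 9 loci with 11 transcripts were set apart as clade A, the group that acts in abscisic acid signalling, and 81 transcripts of 61 loci made up the rest. A further locus, Os04g08560, may belong to clade A too and was counted with the rest.

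The study set the salt-tolerant landrace Pok (Pokkali) against the salt-sensitive variety IR29. Whole seedlings, 24 days old, were kept in Yoshida nutrient medium with 150 mM NaCl for 24 h or without added salt, and RNA bound to polysomes, the ribosome-loaded part of the mRNA, was sequenced. Each of the 4 libraries, Pok salt, Pok control, IR29 salt and IR29 control, was 1 library of its condition. The methods describe a pooling of RNA from biological replicates, so plant-to-plant spread was not measured, and no test was made. Differences below therefore compare libraries, and a treatment or a genotype cannot be told apart from its library. In RNA of whole seedlings, fewer cells of a type and less RNA per cell cannot be told apart, and a polysomal level holds both the amount of an mRNA and its loading on ribosomes.

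Abscisic acid is a hormone that accumulates in plants under salt and drought. Without it, clade A phosphatases keep SnRK2 protein kinases inactive. Receptors of the PYR/PYL/RCAR family that have bound the hormone block these phosphatases, and the released kinases then phosphorylate bZIP transcription factors and other targets. Phosphatases of other clades act in other pathways, and for most of the rice members no role is given here.

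Levels are FPKM, fragments scaled to transcript length and to the mapped fragments of the library, so levels of different genes can be set beside each other per length. A transcript was considered in a comparison with at least 5 FPKM in 1 library of the pair. A call of higher or lower needed a difference of 2-fold or more in FPKM, and "rose" and "fell" are used below only of such calls. Log2 ratios are of FPKM plus 1, which makes them smaller than the plain ratio for low transcripts.

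The libraries were not level with each other. For 7424 annotated transcripts, those with no library under 5 FPKM, the median log2 ratio was 0.26 for salt over control in IR29, 0.06 for salt over control in Pok, 0.33 for Pok control over IR29 control and 0.12 for Pok salt over IR29 salt. Values called centred below were scaled so that each library had the same median ratio to the geometric mean of the 4 libraries. This brings the medians above close to 0. The 5 largest values of a library held 41.4% to 65.1% of its summed FPKM. Leaf transcripts were abundant in all libraries: 4 Rubisco small chain transcripts summed to 854 FPKM in Pok salt, 1876 in Pok control, 267 in IR29 salt and 2275 in IR29 control, with 3 of the 4 at 5 FPKM or more in each library. The 17 chlorophyll A-B binding protein transcripts summed to 2862, 4227, 913 and 2590 FPKM in the same order. Root-expressed transcripts were present as well, since all 4 of the list found in the table were at 5 FPKM or more in every library, with sums of 223 FPKM in Pok salt, 83.4 in Pok control, 47.2 in IR29 salt and 165 in IR29 control. These sums moved with the salt treatment, and their part in the results below was not tested.

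Polysomal levels of the family were spread from 0 to 73.3 FPKM. Of the 92 members, 47 were at 5 FPKM or more in 1 library or more and 29 in all 4, while 45 never reached 5 FPKM. Of the 92, 33 stayed under 1 FPKM in all libraries, including 11 listed at 0 throughout. Members at 5 FPKM or more numbered 42 in Pok salt, 37 in Pok control, 41 in IR29 salt and 31 in IR29 control, which is 45.7%, 40.2%, 44.6% and 33.7% of the family. The shares over all annotated transcripts were 18.4%, 16.9%, 17.9% and 15.6% in that order. The family was thus listed at 5 FPKM or more at a larger share than annotated transcripts as a whole in each library. This was not particular to the family. Other protein phosphatases, 72 transcripts taken by their annotation text, were at 37.5%, 37.5%, 43.1% and 29.2% in the same order.

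The summed FPKM of all members was 794 in Pok salt and 524 in Pok control, and 792 in IR29 salt and 386 in IR29 control. Clade A alone summed to 221 FPKM in Pok salt, 76.7 in Pok control, 164 in IR29 salt and 44.0 in IR29 control. The other members summed to 572, 447, 628 and 342 FPKM in the same order. Both salt libraries were above the control of their genotype in both sums.

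**Figure D1:**
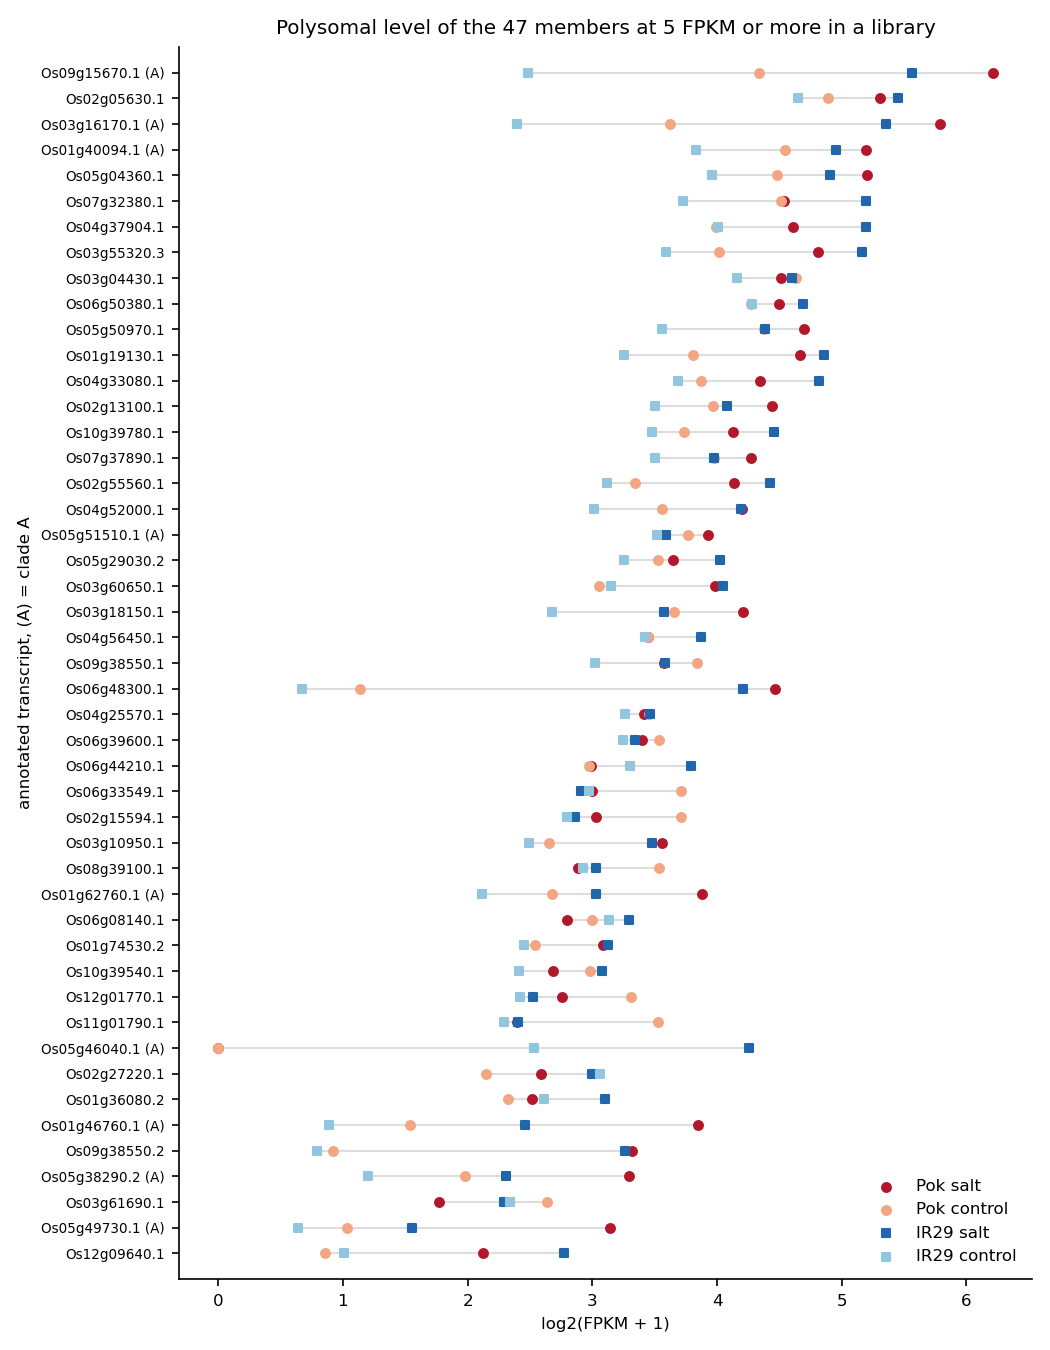
Polysomal level as log2(FPKM + 1) of the 47 members at 5 FPKM or more in a library, 1 row per transcript sorted by mean FPKM; circles are Pok and squares IR29, dark for salt and pale for control, each 1 library. Clade A transcripts are marked (A); Os09g15670.1 reaches 73.3 FPKM in Pok salt, and Os05g46040.1 is listed at 0 in both Pok libraries.

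The highest members outside clade A by mean were Os02g05630.1, Os05g04360.1, Os07g32380.1, Os04g37904.1 and Os03g55320.3. Os02g05630.1 had 38.6 FPKM in Pok salt, 28.7 in Pok control, 42.7 in IR29 salt and 24.1 in IR29 control, and was called in neither salt comparison. Os05g04360.1 had 35.7, 21.4, 29.0 and 14.6 FPKM in the same order and was not called either, with a ratio of 1.99 in IR29 just under the limit. At the other end, 11 transcripts of 8 loci on chromosome 2, between Os02g38494 and Os02g39480 (23273962 to 23820241 in MSU v6.1), never exceeded 1.20 FPKM and 2 of them were listed at 0 in all libraries. This stretch was chosen after its values were seen.

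Clade A phosphatases were mostly higher after salt in both genotypes. In Pok, 6 of the 8 clade A transcripts considered rose and none fell (75.0%), and in IR29 5 of 6 rose and none fell (83.3%). At 5 FPKM or more, clade A had 8 transcripts in Pok salt and 5 in Pok control. In IR29 these were 6 and 2. Some were thus considered only through the salt library, which favours calls of higher, and the counts are few. Over all annotated transcripts considered, 15.7% were called higher and 5.61% lower in Pok, and 19.1% were called higher and 5.96% lower in IR29. The median log2 ratio of the 9 clade A transcripts with a mean of 1 FPKM or more was 1.31 in Pok and 1.13 in IR29, against 0.08 and 0.22 over annotated transcripts at that level. After centring, 6 clade A transcripts remained called higher in Pok and 3 in IR29.

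The highest clade A transcripts after salt were Os09g15670.1 and Os03g16170.1. Os09g15670.1 (chromosome 9, assembled locus 9566470 to 9567904) had 73.3 FPKM in Pok salt, 19.2 in Pok control, 46.3 in IR29 salt and 4.59 in IR29 control. It rose 3.83-fold in Pok (log2 ratio 1.88) and 10.1-fold in IR29 (3.08). Among considered annotated transcripts ordered by log2 ratio it stood at place 630 of 11551 in Pok and 124 of 11119 in IR29.

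Os03g16170.1 (chromosome 3, 8920243 to 8922382) had 54.3 FPKM in Pok salt, 11.3 in Pok control, 39.9 in IR29 salt and 4.26 in IR29 control. Its increase was 4.80-fold in Pok (2.17) and 9.36-fold in IR29 (2.96). For both phosphatases the 2 salt libraries were above both control libraries, and the IR29 control library was the lowest of all.

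The third clade A transcript that rose in both genotypes was Os01g62760.1 (chromosome 1, 36342705 to 36350584), with 13.7 FPKM in Pok salt, 5.38 in Pok control, 7.16 in IR29 salt and 3.34 in IR29 control. The ratios were 2.55 in Pok and 2.14 in IR29, and the IR29 call was lost after centring.

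Another 3 clade A transcripts rose in Pok while staying under 5 FPKM in IR29, where they were not considered. Os01g46760.1 had 13.4 FPKM in Pok salt, 1.91 in Pok control, 4.51 in IR29 salt and 0.846 in IR29 control, with log2 ratios of 2.30 in Pok and 1.58 in IR29. Os05g49730.1 had 7.84, 1.04, 1.93 and 0.557 FPKM in the same order, with log2 ratios of 2.12 in Pok and 0.91 in IR29. Os05g38290.2 had 8.79, 2.95, 3.95 and 1.30 FPKM, with log2 ratios of 1.31 and 1.10. All 3 had their highest level in Pok salt and their lowest in IR29 control, and the salt library was above the control library in IR29 too.

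The other 2 calls in IR29 were not called in Pok. Os01g40094.1 had 35.6 FPKM in Pok salt, 22.3 in Pok control, 30.0 in IR29 salt and 13.2 in IR29 control, a ratio of 1.59 in Pok and 2.27 in IR29, and the IR29 call was lost after centring. Os05g46040.1 (chromosome 5, 26623298 to 26645563) had 18.1 FPKM in IR29 salt and 4.80 in IR29 control, a 3.77-fold increase, and was listed at 0 in both Pok libraries.

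A listed 0 can be a failed estimate of the assembly. All 8 transcripts assembled at the locus of Os05g46040, which also holds forms of the neighbouring Os05g46030, annotated as a myosin head family protein, were listed at 0 in both Pok libraries. In IR29 salt the transcripts there other than Os05g46040.1 reached at most 2.40 FPKM. A level of 10 FPKM or more in IR29 salt was found for 6215 annotated transcripts, of which 33 (0.53%) were listed at 0 in both Pok libraries. No fold is given for this gene in Pok or between the genotypes.

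Os05g51510.1 was the only clade A transcript considered in both genotypes and called in neither. It had 14.3 FPKM in Pok salt, 12.7 in Pok control, 11.1 in IR29 salt and 10.5 in IR29 control, with log2 ratios of 0.16 in Pok and 0.07 in IR29. Pok salt was the highest library and IR29 control the lowest, as for most of clade A, but the levels were close together.

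**Figure D2:**
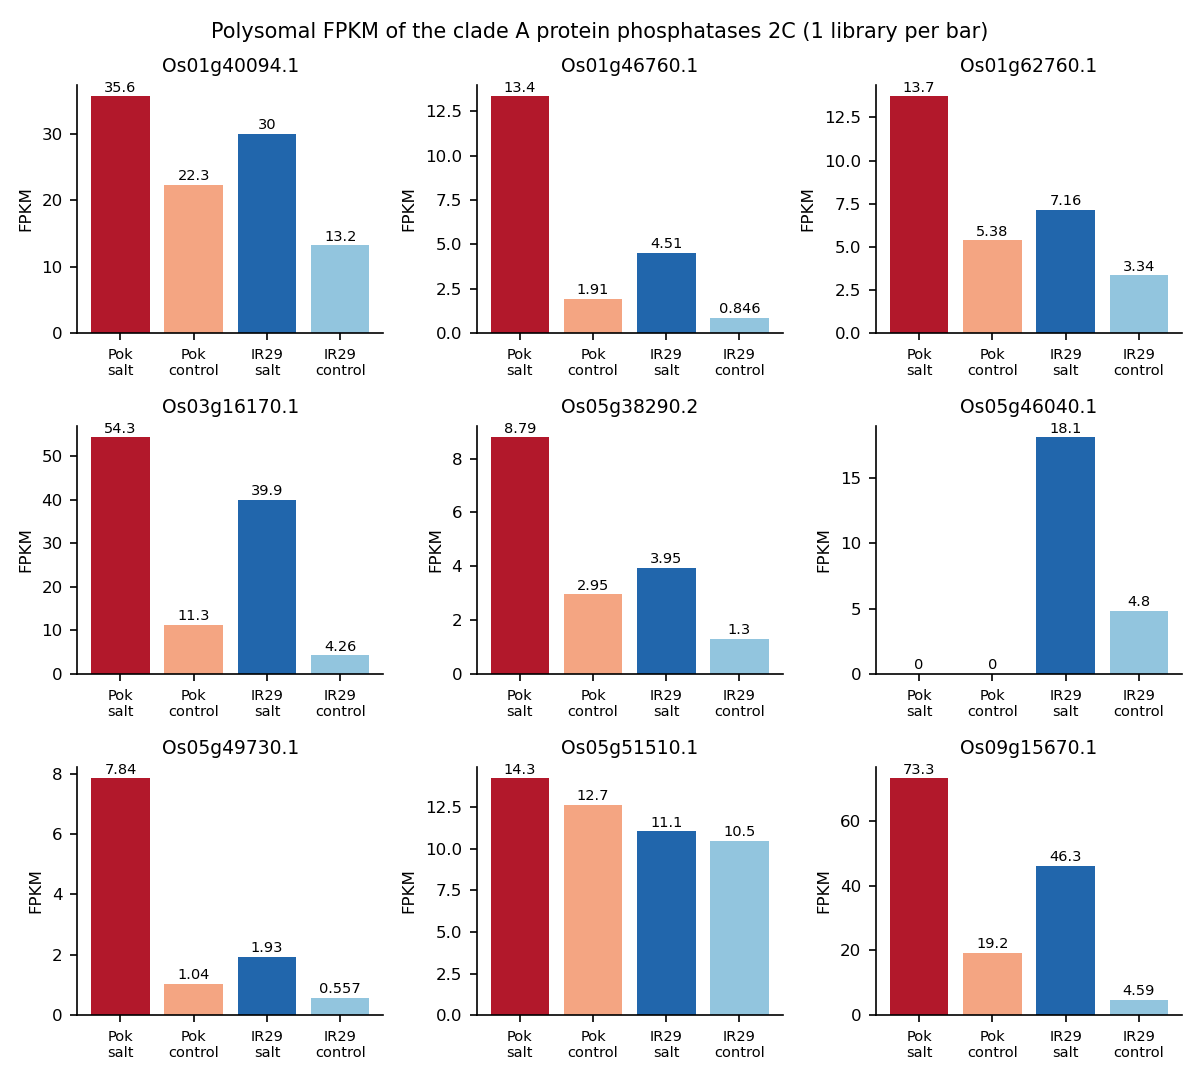
Polysomal FPKM of the highest annotated transcript of each of the 9 clade A loci; each bar is 1 library, with salt left of control and Pok left of IR29, and each panel has its own axis from 0. The salt bar is above the control bar in both genotypes in 8 panels, and Os05g46040.1 has no bar for Pok, where it is listed at 0.

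Outside clade A, more members rose in IR29 than in Pok. In Pok, 4 of 36 considered transcripts rose (11.1%, against 15.7% of all annotated transcripts) and 2 fell (5.56%, against 5.61%), so both shares were near or below those of all transcripts. In IR29 13 of 35 rose (37.1%, against 19.1%) and none fell (against 5.96%). The median log2 ratio of the 45 transcripts with a mean of 1 FPKM or more was 0.22 in Pok and 0.49 in IR29. After centring the counts were 2 higher and 1 lower in Pok and 8 higher and none lower in IR29, where 13.5% of all annotated transcripts were higher in Pok and 13.4% in IR29, with medians of 0.15 and 0.28. Other protein phosphatases, 72 transcripts of 56 loci, had 4 of 30 higher in Pok and 8 of 31 in IR29, and none lower in either.

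Among considered members, the largest log2 ratio in both salt comparisons was that of Os06g48300.1 (chromosome 6, 29207031 to 29211887), which is outside the clade A list. It had 21.1 FPKM in Pok salt, 1.20 in Pok control, 17.5 in IR29 salt and 0.591 in IR29 control. It rose 17.5-fold in Pok (log2 ratio 3.33) and 29.6-fold in IR29 (3.54), place 122 of 11551 and place 51 of 11119. Both salt libraries were well above both controls, which were at most at 1.20 FPKM.

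Os09g38550 gave different patterns for its 2 annotated transcripts. The second, Os09g38550.2, had 8.97 FPKM in Pok salt, 0.897 in Pok control, 8.62 in IR29 salt and 0.728 in IR29 control, a 10.0-fold increase in Pok and 11.8-fold in IR29. The first, Os09g38550.1, had 10.9, 13.3, 11.0 and 7.14 FPKM in the same order and was called in neither genotype. Summed over both transcripts, the locus had 19.9 FPKM in Pok salt, 14.2 in Pok control, 19.6 in IR29 salt and 7.87 in IR29 control. The sum was below the 2-fold limit in Pok and above it in IR29. Cufflinks divides reads between overlapping transcripts, and the part of this in the values of both transcripts was not tested.

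Os03g10950.1 was the third transcript outside clade A that rose in both genotypes, with 10.8 FPKM in Pok salt, 5.28 in Pok control, 10.2 in IR29 salt and 4.64 in IR29 control. Its ratios of 2.04 in Pok and 2.19 in IR29 were near the limit, and neither was called after centring.

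The remaining 10 transcripts outside clade A that rose in IR29 were not called in Pok. Os12g09640.1 had 3.36 FPKM in Pok salt, 0.805 in Pok control, 5.85 in IR29 salt and 1.01 in IR29 control, with log2 ratios of 1.27 in Pok, where it was not considered, and 1.77 in IR29. Os01g19130.1 had 24.4, 13.0, 28.0 and 8.56 FPKM in the same order (0.86 in Pok and 1.60 in IR29). Os03g55320.3 had 27.0, 15.2, 34.9 and 11.1 FPKM (0.79 and 1.57). In these 3 the salt library was above the control library in Pok too.

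Os07g32380.1 was nearly level in Pok, with 22.2 FPKM in Pok salt and 21.8 in Pok control, against 35.6 in IR29 salt and 12.2 in IR29 control. Its log2 ratio was 0.02 in Pok and 1.47 in IR29. Lower ratios in IR29 were found for Os02g55560.1 (1.31), Os04g37904.1 (1.19), Os04g52000.1 (1.18), Os04g33080.1 (1.13), Os10g39780.1 (0.98) and Os03g18150.1 (0.90), whose log2 ratios in Pok were 0.80, 0.62, 0.64, 0.48, 0.39 and 0.55. Of these 6, Os04g37904.1, Os04g33080.1, Os10g39780.1 and Os03g18150.1 were not called in IR29 after centring. Summed with its splice variant, the locus Os03g18150 had log2 ratios of -0.17 in Pok and 1.05 in IR29.

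In Pok, 1 transcript outside clade A rose without being called in IR29. Os03g60650.1 had 14.8 FPKM in Pok salt, 7.30 in Pok control, 15.6 in IR29 salt and 7.89 in IR29 control. The ratios were 2.03 in Pok and 1.97 in IR29, which lie on either side of the limit, and the Pok call was lost after centring.

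The 2 members that fell did so in Pok. Os11g01790.1 had 4.25 FPKM in Pok salt and 10.5 in Pok control (log2 ratio -1.13), against 4.28 in IR29 salt and 3.91 in IR29 control (0.11). Only the Pok control library stood apart. Summed with its splice variants, the locus had log2 ratios of -0.68 in Pok and 0.04 in IR29, and was not called lower in Pok. Os03g61690.1 had 2.41 FPKM in Pok salt, 5.22 in Pok control, 3.89 in IR29 salt and 4.08 in IR29 control, with a log2 ratio of -0.87 in Pok. After centring its log2 ratio there was -0.91, and it was no longer considered since Pok control came to 4.95 FPKM. Os11g01790 and Os12g01770 lie near the chromosome ends, on duplicated parts of chromosomes 11 and 12, where near-identical copies can share reads, and values of both are uncertain.

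**Figure D3:**
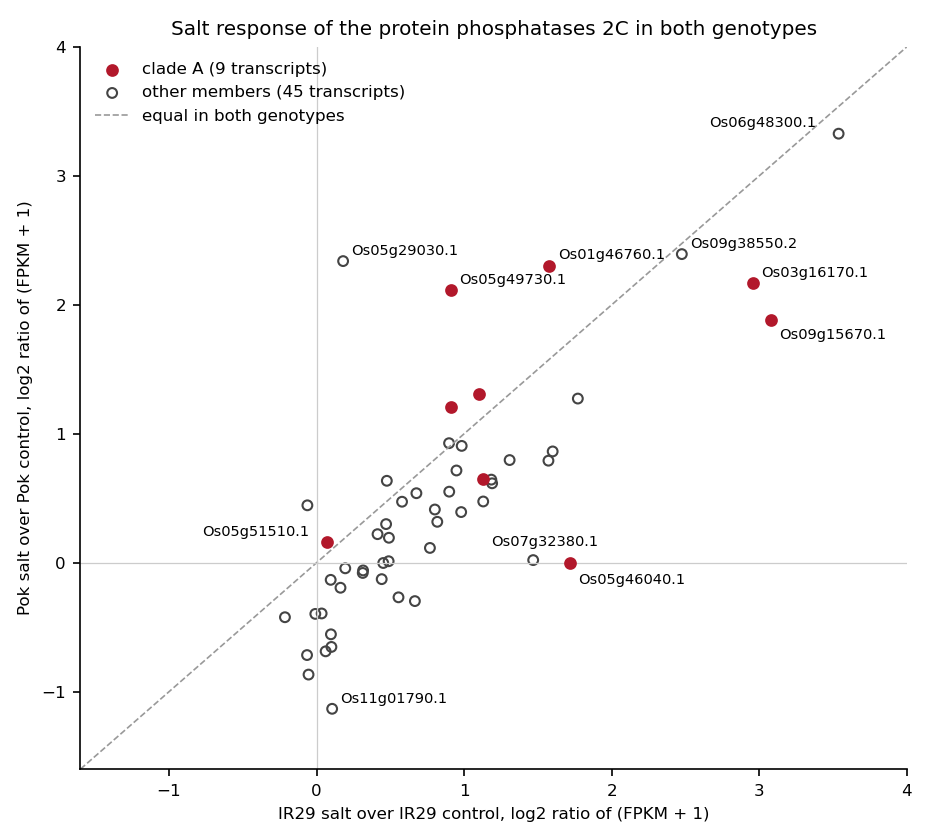
Log2 ratio of (FPKM + 1), salt over control, in IR29 (horizontal axis) and Pok (vertical axis) for the 54 members with a mean of 1 FPKM or more; filled points are the 9 clade A transcripts, open points the other 45, and the dashed line marks equal ratios. Most points lie below the line (45 of 54), with Os01g46760.1 and Os05g49730.1 among those above it; Os05g46040.1 and Os05g29030.1 hold listed zeros in Pok.

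Over the whole family, 10 of 44 considered members rose and 2 fell in Pok, where 15.7% of all annotated transcripts were called higher and 5.61% lower. In IR29 18 of 41 rose and none fell, where 19.1% were called higher and 5.96% lower. After centring, 8 rose and 1 fell in Pok, against 13.5% higher and 6.32% lower of all annotated transcripts, and 11 rose and none fell in IR29, against 13.4% higher and 9.44% lower. The median log2 ratio over the 54 members with a mean of 1 FPKM or more was 0.36 in Pok and 0.67 in IR29 (0.28 and 0.44 after centring). The ratio was above 0 in 35 of 54 members in Pok and 49 of 54 in IR29, and in 33 and 39 of them after centring. Over 18012 annotated transcripts at that level it was above 0 in 10170 in Pok and 11530 in IR29. After centring these were 9300 and 9002.

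Members with a larger salt ratio in one genotype tended to have a larger one in the other. These comparisons share no library. Across the 54 members Pearson's r was 0.77 and Spearman's rho 0.77, and r was 0.79 without clade A (n = 45). Across 18012 annotated transcripts with a mean of 1 FPKM or more, r was 0.42 and rho 0.44. Members are not independent replicates, and these coefficients are descriptions.

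A total of 6 members, of 6 loci, rose in both genotypes out of 38 considered in both, while 8.98% of annotated transcripts considered in both did so. They were 60.0% of the members called higher in Pok and 33.3% of those called higher in IR29. Another 4 members were called higher in Pok and not in IR29, and 12 in IR29 and not in Pok. Among all annotated transcripts, 906 were called higher in both, out of 1815 called higher in Pok and 2123 in IR29. The members' counts are few beside these. With the annotated transcripts of a locus summed, 9 loci were called higher in Pok, and Os09g38550 was not among them.

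The ratio in Pok was below that in IR29 in 45 of 54 members, or 83.3%, and in 60.0% of annotated transcripts. After centring it was below in 41 of 54 members and in 8874 of 18012 annotated transcripts. The median difference, Pok minus IR29, was -0.41 over the members and -0.15 over annotated transcripts. Outside clade A, the ratio in Pok was below in 41 of 45 members (91.1%), with a median difference of -0.43. After centring it was below in 37 of these 45.

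Of 47 members at 5 FPKM or more in any library, 1 had a log2 ratio larger in Pok by at least 1 and 4 had a ratio smaller by at least 1. Among annotated transcripts 7.89% were larger and 7.93% smaller by this limit. The member with the larger ratio in Pok was Os05g49730.1 (difference 1.20). The members with the smaller ratio were Os05g46040.1 (-1.72, from listed zeros in Pok), Os07g32380.1 (-1.45), Os11g01790.1 (-1.24) and Os09g15670.1 (-1.20). The other members called in 1 genotype only differed by less than this.

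**Figure D4:**
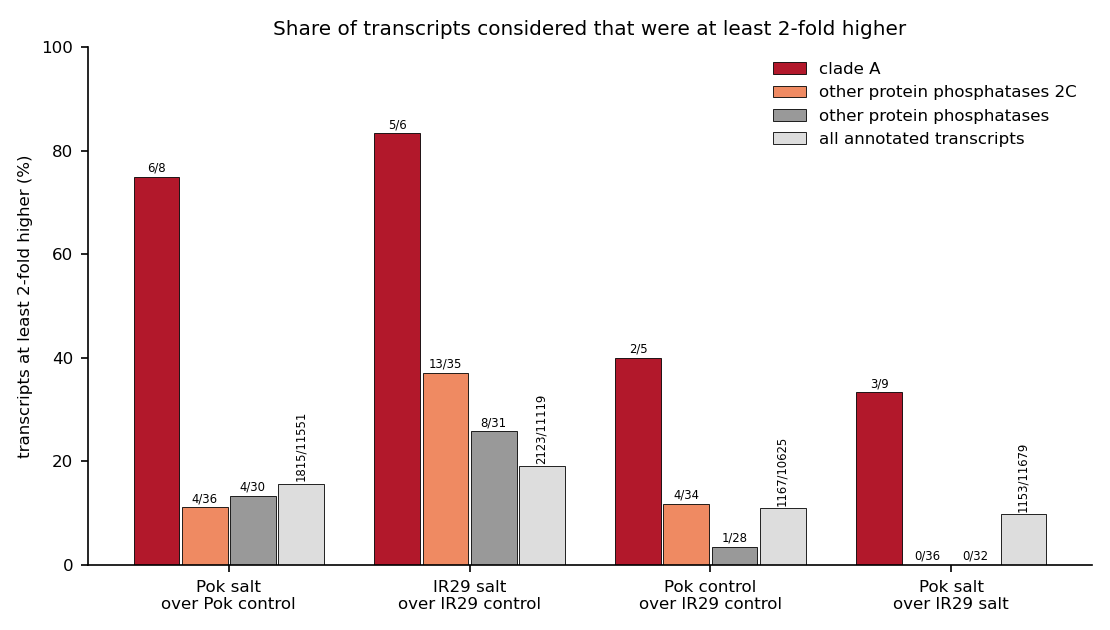
Percent of considered transcripts that were at least 2-fold higher in each of 4 comparisons, for clade A, the other protein phosphatases 2C, other protein phosphatases and all annotated transcripts; each bar carries its count over the number considered, and no error is shown because each condition had 1 library. Clade A reaches 6 of 8 in Pok, 5 of 6 in IR29, 2 of 5 between the control libraries and 3 of 9 between the salt libraries. Each share is above that of all annotated transcripts but rests on few transcripts. Some of these were considered only through the library where they are higher, which favours such calls.

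Between the control libraries, 6 of 39 considered members were higher in Pok and 1 was lower, where 11.0% of all annotated transcripts were called higher and 6.62% lower. After centring the members' counts were 3 and 1, or 3 and 2 with Os05g46040.1, listed at 0 in Pok control, which passed 5 FPKM in IR29 control only after scaling, and the annotated shares were 5.56% and 9.14%. The members' median log2 ratio was 0.29 as deposited and 0.01 after centring. Clade A gave 2 of the 6, Os09g15670.1 (4.17-fold, 19.2 FPKM in Pok control against 4.59 in IR29 control) and Os03g16170.1 (2.65-fold, 11.3 against 4.26). Both were considered only through Pok control, which favours calls of higher.

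The other 4 were Os11g01790.1 (10.5 FPKM in Pok control and 3.91 in IR29 control), Os03g18150.1 (11.6 and 5.39), Os02g15594.1 (12.1 and 5.96) and Os12g01770.1 (8.93 and 4.36). Of these, Os11g01790.1 stayed called after centring. Os02g27220.1 was the member called lower, with 3.42 FPKM in Pok control and 7.33 in IR29 control. Splice variants held 82.8% of the FPKM of this locus in Pok control and 58.6% in IR29 control. Summed with them, the log2 ratio of the locus, Pok control over IR29 control, was 0.16.

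Between the salt libraries, 3 of 45 considered members were higher in Pok and 1 was lower, against 9.87% higher and 6.76% lower of all annotated transcripts. All 3 higher members were of clade A, out of 9 clade A transcripts considered, and none of 36 other members was called in either direction. They were Os05g49730.1 (4.06-fold, 7.84 FPKM in Pok salt against 1.93 in IR29 salt), Os01g46760.1 (2.96-fold, 13.4 against 4.51) and Os05g38290.2 (2.23-fold, 8.79 against 3.95). All 3 were under 5 FPKM in IR29 salt and were considered only through Pok salt, which favours calls of higher. Os05g46040.1 was the lower one, listed at 0 in Pok salt with 18.1 FPKM in IR29 salt. After centring, Os06g44210.1 (6.94 FPKM in Pok salt and 12.9 in IR29 salt) was called lower as well, and the annotated shares were 7.09% higher and 8.08% lower. The members' median log2 ratio was -0.05, and -0.15 after centring. The salt comparisons and the genotype comparisons share libraries, so their values are not independent of each other.

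Genes of the pathway around the phosphatases were measured in the same libraries. Of 12 receptor loci listed, 10 were found, with 11 transcripts. Only 3 of these were considered and none was called in either genotype. The receptor transcript Os05g12260.1 had 35.3 FPKM in Pok salt, 33.6 in Pok control, 24.6 in IR29 salt and 19.1 in IR29 control. Os02g15640.1 had 25.2, 31.0, 22.1 and 20.7 FPKM in the same order. Os03g18600.1 had 10.5, 15.2, 7.12 and 13.3 FPKM, and was called lower in IR29 only after centring.

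Of the SnRK2 kinases, the family that includes targets of clade A phosphatases, 10 loci with 17 transcripts were found and 9 transcripts were considered. In each genotype 1 rose and none fell, and it was Os02g34600.1 in both. It had 22.0 FPKM in Pok salt, 9.71 in Pok control, 26.6 in IR29 salt and 6.41 in IR29 control, with log2 ratios of 1.10 in Pok and 1.90 in IR29.

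The bZIP factors, which the kinases phosphorylate, were 6 loci with 9 transcripts, of which 5 were considered. In Pok 3 rose and in IR29 4 rose, and none fell. Os01g64730.1 had 26.2 FPKM in Pok salt, 2.93 in Pok control, 17.5 in IR29 salt and 1.11 in IR29 control, with log2 ratios of 2.79 in Pok and 3.13 in IR29. Os02g52780.1 had 14.9, 6.71, 16.6 and 2.61 FPKM in the same order (1.04 and 2.29). Os06g10880.1 had 16.7, 7.87, 5.16 and 1.89 FPKM (0.99 and 1.09) and was also called higher in Pok between the salt libraries (log2 ratio 1.52) and between the control libraries (1.62). Os08g36790.1, known as TRAB1, was called in IR29 and not in Pok, with 15.4 FPKM in Pok salt, 10.1 in Pok control, 15.5 in IR29 salt and 6.22 in IR29 control. Of all annotated transcripts considered, 15.7% were called higher in Pok and 19.1% in IR29. With 3 receptors, 9 kinases and 5 bZIP factors considered, the counts are too few to set against these shares.

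Assemblies other than the annotated transcripts were also annotated with the family's name. There were 102 such forms, 34 of them at 5 FPKM or more in a library, and 79 were splice variants that share a junction with an annotated transcript. Of the 79, 7 lay at 3 loci with no member and 72 at loci with a member. Of the 72, 2 of 15 considered were higher and 1 lower after salt in Pok, and 8 of 15 were higher and none lower in IR29. Over all splice variants of the table, 769 of 5342 were higher and 625 lower in Pok, and 1258 of 5129 were higher and 476 lower in IR29.

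Splice variants held most of the FPKM of the clade A locus Os01g40094. The second splice variant had 65.9 FPKM in Pok salt, 73.8 in Pok control, 192 in IR29 salt and 19.7 in IR29 control, with log2 ratios of -0.16 in Pok and 3.23 in IR29. The first variant had 24.3, 9.71, 17.8 and 3.58 FPKM in the same order (1.24 and 2.04). Splice variants made up 71.7% of the locus' FPKM in Pok salt, 78.9% in Pok control, 87.5% in IR29 salt and 63.8% in IR29 control. Summed over the annotated form and its variants, the log2 ratio of the locus was 0.25 in Pok and 2.69 in IR29, while the annotated form alone gave 0.65 and 1.13.

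At Os07g32380 a splice variant had 1.71 FPKM in Pok salt, 1.78 in Pok control, 12.3 in IR29 salt and 1.64 in IR29 control, and IR29 salt was the highest library as for the annotated form. The locus Os04g08560, the possible further clade A member, had an annotated transcript of at most 0.257 FPKM and a splice variant of 6.61 FPKM in Pok salt, 0.47 in Pok control, 5.78 in IR29 salt and 0.27 in IR29 control. A variant of Os02g08364 had 14.3, 17.9, 17.8 and 10.1 FPKM while the annotated form was listed at 0.

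Forms read on the opposite strand or inside introns also moved with some of the members that rose. At Os06g48300 a form over the exons on the other strand had 10.0 FPKM in Pok salt, 0.305 in Pok control, 9.05 in IR29 salt and 0.119 in IR29 control. At Os03g16170 a form matching an intron on the other strand had 7.21, 1.72, 5.34 and 0.279 FPKM in the same order. At Os01g62760 an antisense form had 8.74, 1.57, 3.33 and 0.748 FPKM. The library kit is not stated to keep the strand, so reads of these genes and of their antisense forms cannot be told apart.

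**Figure D5:**
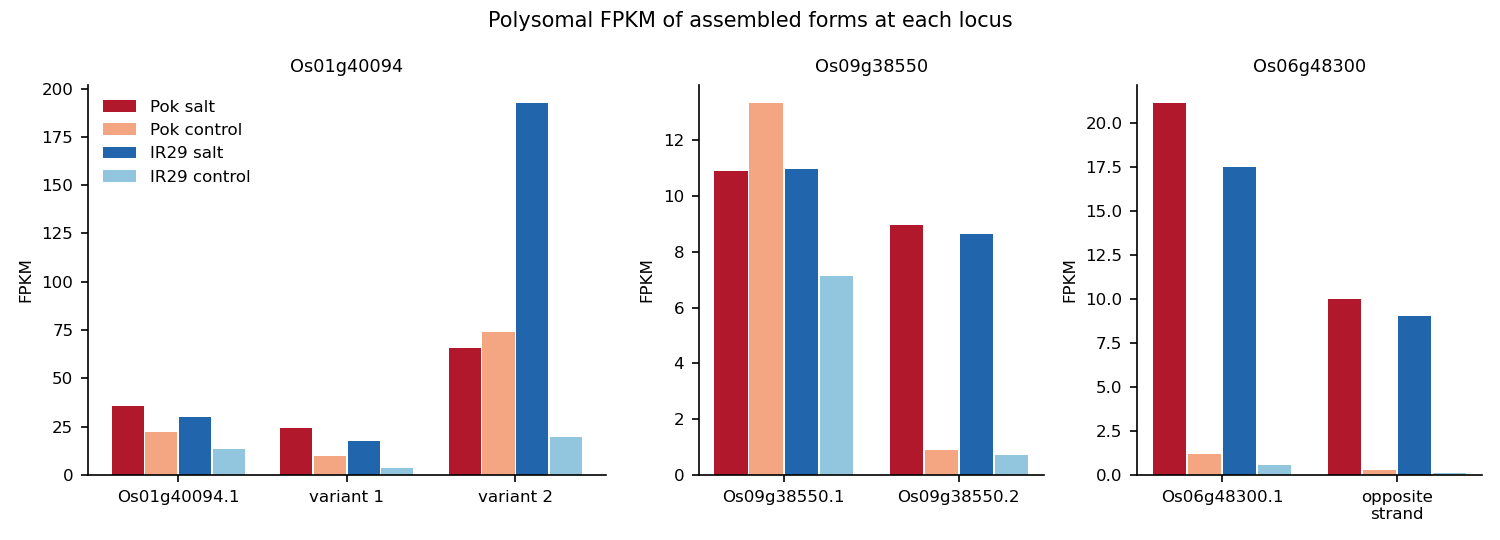
Polysomal FPKM of assembled forms at Os01g40094 (annotated transcript and splice variants), Os09g38550 (both annotated transcripts) and Os06g48300 (annotated transcript and the form on the opposite strand); each bar is 1 library and each panel has its own axis from 0. Variant 2 of Os01g40094 reaches 192 FPKM in IR29 salt, and only Os09g38550.2 of its locus is higher in both salt libraries.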

How the data were processed

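Polysomal RNA of salt-treated and control seedlings of Pok and IR29 was measured in 4 libraries. According to the methods, the authors filtered reads on quality and used TopHat for alignment against MSU v6.1, Cufflinks for assembly, Cuffmerge and Cuffcompare for merging and classing, and Cuffdiff for comparison. Tool versions are not given in the sources used here. The deposited table holds 1 FPKM value per assembled transcript and library. The table gives no counts, so the number of reads behind a value is unknown and no counting interval is given. The paper reports reads per library, with fewer cDNA reads in each Pok polysomal library than in each IR29 one. The part of this in low values and listed zeros was not tested. Positions are of the assembled locus, with 1 added to starts read as 0-based.

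Transcripts of the class that matches the annotation were used. Calls were made at 5 FPKM and a ratio of 2, log2 ratios with a pseudocount of 1 FPKM, and medians over members with a mean of 1 FPKM or more. With 1 library per condition no test was run. Named were every clade A locus, up to 10 called members outside clade A with the largest log2 ratio in each direction of each comparison, the 5 highest by mean, the 5 with the largest genotype difference, and the called genes of abscisic acid lists. The receptors, Os06g44210.1, Os05g29030.1, the chromosome 2 stretch and the unannotated forms were named after their values were seen. The members and lists were chosen with earlier results of these data known. The alternatives covered the FPKM minimum, the fold limit, the pseudocount, the scaling, sums per locus and listed zeros; summing splice variants was chosen after seeing the data. The scripts were tested on simulated data and ran in Python 3.11.15 with pandas 2.3.3, numpy 2.4.6 and matplotlib 3.10.9.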

Additional observations from a re-analysis of the deposited data

Results flagged for a closer look

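Os11g01790.1 had salt log2 ratios of opposite sign as deposited, -1.13 in Pok and 0.11 in IR29, a difference of -1.24, which was not tested. The IR29 ratio was not called, and after centring it was -0.11, of the same sign as in Pok (-1.19). Summed with its splice variants, the locus had log2 ratios of -0.68 in Pok and 0.04 in IR29. The gene lies in a duplicated chromosome end and may share reads with Os12g01770.

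There were 102 forms of the family outside the annotated transcripts, 34 of them at 5 FPKM or more in a library. After salt, 5 forms were called higher in both genotypes. In Pok salt they had 24.3 FPKM (the first splice variant of Os01g40094), 7.26 FPKM (an intronic form at Os01g46760, listed at 0 in both control libraries and at 6.23 FPKM in IR29 salt), 7.21 FPKM (a form matching an intron of Os03g16170 on the other strand), 6.61 FPKM (a splice variant of Os04g08560) and 10.0 FPKM (the antisense form at Os06g48300).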

How the results depend on the processing

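With 1 library per condition and FPKM without counts, no spread or error can be given for any value, and counts near the limits depend on the setting. No paired analysis was possible because each comparison set 1 library against 1 and came from no test. A fit of both genotypes together, with salt and genotype as terms, was not run. Of 620 values of single members under alternatives, 589 kept their side of the limit, and 27 lost and 4 gained a call. Calls used plain FPKM, so the 124 values at each alternative pseudocount could not lose or gain one. A locus with 1 annotated transcript also keeps its value when summed. The 589 therefore overstate how stable the calls were. The sign differed from that as deposited in 30 of the 620 values, none of which was called as deposited, all with log2 ratios of at most 0.27 in size.

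For salt over control, the members called higher in Pok were 10 as reported and 5 at a 4-fold limit; those called lower were 2 as reported, 1 at a 10 FPKM minimum, with a limit on log2 of FPKM plus 1, or with median-ratio or upper-quartile scaling, and 0 at 4-fold or with splice variants summed. In IR29 the members called higher were 18, against 5 at 4-fold, 11 with median-ratio and 10 with upper-quartile scaling; 1 was lower at a 1 FPKM minimum, against 0. Over all 92 members the median was 0.016 in Pok and 0.25 in IR29, where upper-quartile scaling gave 0.41. Clade A calls were 3 at 4-fold in Pok (6 as reported), and in IR29 (5 as reported) 2 at 4-fold, 3 with median-ratio scaling and 9 at 1 FPKM.

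Between the control libraries, Pok over IR29, 6 were higher as reported, 10 at 1 FPKM, 1 at 4-fold, and 3 with the limit on log2 of FPKM plus 1 or with either scaling; 1 was lower as reported, 4 at 1 FPKM, 2 with either scaling or with transcripts of a locus summed, and 0 at 10 FPKM, at 4-fold or with the log2 limit. The median of 0.29 became 0.0099 with median-ratio and -0.012 with upper-quartile scaling. Between the salt libraries 3 were higher as reported and 1 at 10 FPKM or 4-fold; 1 was lower as reported, 2 at 1 FPKM, with either scaling or with splice variants summed, and 0 with listed zeros left out. With a pseudocount of 5 FPKM, 0 members had a salt ratio larger in Pok by the limit and 2 a smaller one, against 1 and 4.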
